A study of Mus musculus with 6 samples.

Results

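The enzymes that write and erase DNA methylation were followed in mouse cells labelled long-term haematopoietic stem cells (LT-HSCs), which keep up blood formation for life. All 10 genes chosen by name were among the 26776 genes of the deposited table: the methyltransferase genes Dnmt1, Dnmt3a and Dnmt3b, the maintenance cofactor gene Uhrf1 and its paralogue Uhrf2, the dioxygenase genes Tet1, Tet2 and Tet3, the glycosylase gene Tdg and the methyl-CpG binding protein gene Mbd2. Both groups share a genotype: the donors were Trim47+/eGFP mice, named for a green fluorescent reporter on one Trim47 allele, and their bone marrow LT-HSCs were sorted as low (eGFPlo) or high (eGFPhi) for it. There were 3 libraries per group, and counts summed to 11221070 to 26058391 per library. The labels used here name no age, sex, sorting gate or animal per replicate, so a p-value here reflects the spread among these samples alone, and that spread may be technical.

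DNA methylation in mammals sits mainly on cytosines that are followed by guanine. After replication UHRF1 recognises the half-methylated sites and recruits DNMT1, which copies the mark to the new strand, while DNMT3A and DNMT3B place it on sites that had none. TET enzymes oxidise the methyl group, and TDG then excises the oxidised bases for repair. In blood, DNMT3A and TET2 are among the genes most often mutated in clonal haematopoiesis, and loss of DNMT1 impairs stem cell self-renewal in mice.

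Levels are CPM (a gene's count as a share of the library's kept counts, TMM-scaled), and a mean ± SD covers the 3 libraries of a group. Each fold change compares eGFPhi with eGFPlo in one edgeR quasi-likelihood model of all genes, and carries a Benjamini-Hochberg adjusted p and the standard error (SE) of its log2 value. All 10 genes passed the filter on low counts. At an adjusted p under 0.05, 4 of the 10 were lower in eGFPhi (Uhrf1, Tdg, Dnmt1 and Mbd2), 1 was higher (Tet1) and 5 did not pass (Dnmt3a, Dnmt3b, Tet2, Tet3 and Uhrf2). Of all 18081 genes tested 64.0% passed, 31.7% as lower and 32.3% as higher, so the 10 genes were not called more often than genes at large. Their median log2 fold change was -0.052, beside 0.0035 for all genes tested. The same 5 genes were the ones whose 3 eGFPhi values lay wholly outside the 3 eGFPlo values, which held for 69.8% of all genes (34.6% with eGFPhi lower and 35.2% with eGFPhi higher).

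**Figure D1:**
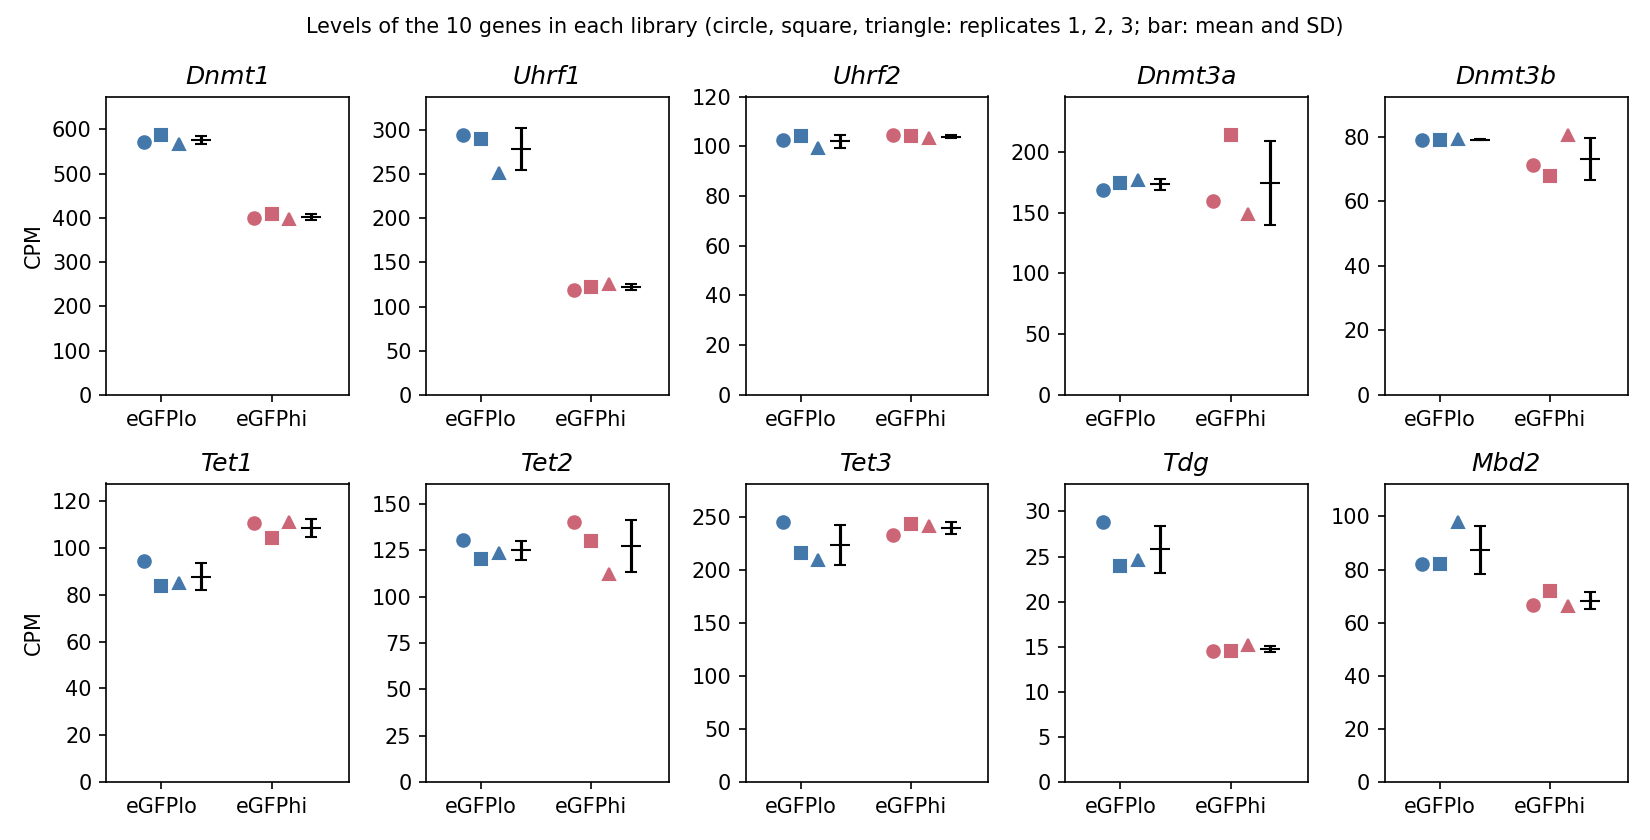
CPM (vertical axes, each starting at 0) of the 10 genes in the 3 eGFPlo and 3 eGFPhi libraries, with the group mean and SD beside the points. The groups lie apart for Dnmt1, Uhrf1, Tdg and Mbd2 (lower in eGFPhi) and Tet1 (higher), and overlap for the other 5 genes.

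Both populations differed in markers of cell state and of other cells. Trim47 stood at 8.12 ± 0.818 CPM in eGFPlo and 23.7 ± 2.29 CPM in eGFPhi, in the direction of the sort. Of 14 LT-HSC markers 13 rose and 0 fell, and their summed level was 1303 to 1325 CPM in eGFPlo and 2993 to 3203 CPM in eGFPhi. All 21 proliferation markers fell (median log2 fold change -1.24), from a sum of 4421 to 4472 CPM to one of 2049 to 2083 CPM. All 15 B cell markers fell, from 6272 to 6362 CPM to 737 to 761 CPM, and Igll1, Vpreb3, Rag2 and Cd22 had no count in any eGFPhi library. Most of both sums came from Ighm and Igkc, which averaged 3026 and 2726 CPM in eGFPlo and 394 and 336 CPM in eGFPhi. They fell 7.69-fold and 8.11-fold. All 14 granulocyte-monocyte progenitor markers fell, from 6611 to 6732 CPM to 996 to 1220 CPM. Calr alone gave 565 to 783 CPM of that eGFPhi sum. It fell 1.61-fold, whereas Mpo fell 20.5-fold and Elane 22.7-fold. Of 6 tested T and NK cell markers 5 fell, from 71.2 to 72.8 CPM to 14.2 to 16.1 CPM. Of 13 tested erythroid markers 10 fell, from 234 to 256 CPM to 120 to 129 CPM. Tfrc alone gave 60.7 to 70.0 CPM of this eGFPhi sum. Kit and Meis1, the LT-HSC markers with the highest levels, averaged 539 and 261 CPM in eGFPlo and 783 and 519 CPM in eGFPhi. Slamf1, a surface marker of stem cells, had 3.82 to 5.83 CPM in eGFPlo and 33.2 to 36.2 CPM in eGFPhi. By the summed LT-HSC markers the label was matched less in eGFPlo than in eGFPhi, and B cell and progenitor transcripts were abundant in eGFPlo. In bulk samples fewer cells of a type and less RNA per cell cannot be told apart.

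Uhrf1 and Dnmt1, the core of maintenance, were lower in eGFPhi. Uhrf1 (ENSMUSG00000001228, GRCm38 chromosome 17, 56303321 to 56323486, plus strand) encodes the ubiquitin ligase that reads half-methylated DNA. It stood at 293, 290 and 251 CPM in eGFPlo replicates 1 to 3 and at 118, 122 and 125 CPM in eGFPhi replicates 1 to 3. All eGFPhi libraries lay far below all eGFPlo libraries, and eGFPlo replicate 3 was the lowest of its group. The means of 278 ± 23.8 and 122 ± 3.49 CPM differed 2.28-fold (log2 fold change -1.19, SE 0.062, edgeR adjusted p = 3.16e-06), and 7.83% of tested genes had a lower log2 fold change. A sequence share of 9.05% with the annotated copy Gm5648, measured as identical stretches of 75 bases in transcripts, makes a small part of its reads uncertain. Gm5648 itself stood at 14.8 to 16.4 CPM in eGFPlo and 5.42 to 6.68 CPM in eGFPhi, and the sum of both was 2.30-fold lower in eGFPhi.

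Dnmt1 (ENSMUSG00000004099, chromosome 9, 20907209 to 20959888, minus strand), the maintenance methyltransferase gene, had 572, 586 and 568 CPM in eGFPlo replicates 1 to 3. The eGFPhi libraries had 400, 409 and 397 CPM. Both groups were tight, with coefficients of variation of 1.66% and 1.60%, and they did not overlap. The levels of 575 ± 9.57 and 402 ± 6.42 CPM differed 1.43-fold (log2 fold change -0.52, SE 0.022, edgeR adjusted p = 1.15e-06), a smaller fall than that of Uhrf1. Dnmt1 did not pass when a biological coefficient of variation of 0.2 was assumed in place of the measured spread (edgeR adjusted p = 0.0728).

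Uhrf2 (ENSMUSG00000024817, chromosome 19, 30030513 to 30093722, plus strand) encodes a paralogue of UHRF1 that binds hydroxymethylated DNA. Its eGFPlo libraries had 103, 104 and 99.2 CPM and its eGFPhi libraries 104, 104 and 103 CPM. The groups overlapped and the log2 fold change was 0.028, with a 95% interval of -0.047 to 0.10 (edgeR adjusted p = 0.476). This interval is the narrowest but one of the 10 genes, and it lies wholly above that of Uhrf1 (-1.33 to -1.05).

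Within a library the ratio of Uhrf1 to Uhrf2 counts does not depend on how libraries are scaled. Its log2 value was 1.34 to 1.52 in eGFPlo and 0.18 to 0.28 in eGFPhi, a difference of -1.22. The groups did not overlap, so the exact two-sided permutation test gave p = 0.1, the smallest that 3 libraries against 3 allow (adjusted p = 0.15 over the 6 ratios computed). Per kilobase of merged exons, Uhrf1 made up 84.6 ± 0.863% of the summed level of both genes in eGFPlo and 70.2 ± 0.721% in eGFPhi. These shares rest on the length chosen. By the longest transcript Uhrf1 had 77.5 and Uhrf2 28.8 CPM per kilobase in eGFPlo, and 33.9 and 29.4 in eGFPhi.

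The promoters of this pair are shown because the paralogues differ in level and in the letters before their start sites. The pair was picked with both differences known, so a link between them was not tested. RefSeq (GRCm38.p6) windows of 250 bases upstream of annotated starts were searched on both strands for the E2F-type octamers TTTCCCGC, TTTCGCGC, TTTGCCGC and TTTGGCGC, the letters of a factor family known for genes of S phase. Of 32851 windows of all genes 1.86% held one. Each octamer contains a CpG, and this share was not matched for the CpG content of the windows. Windows were found for 9 of the 10 genes, 14 windows in all, and 2 held a match: one of the 2 windows of Uhrf1 and one of the 3 windows of Dnmt1. The Uhrf1 window lies at chr17:56304063-56304312 on the plus strand, inside the annotated gene but outside its annotated exons. It precedes a downstream start and holds TTTCGCGC 185 bases before that start. The Uhrf2 window lies at chr19:30030263-30030512 on the plus strand and held none. The Dnmt1 match, 219 bases before a start at position 20952623, falls in an annotated exon of the gene. Only chr9:20952824-20952853 on the minus strand is therefore shown, where the match reads as its reverse complement. Capitals mark the octamer.
Uhrf1: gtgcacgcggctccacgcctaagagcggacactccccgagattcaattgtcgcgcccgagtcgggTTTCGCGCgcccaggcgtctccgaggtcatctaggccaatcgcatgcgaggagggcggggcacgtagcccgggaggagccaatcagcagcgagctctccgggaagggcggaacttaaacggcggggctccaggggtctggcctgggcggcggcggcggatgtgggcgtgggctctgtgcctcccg
Uhrf2: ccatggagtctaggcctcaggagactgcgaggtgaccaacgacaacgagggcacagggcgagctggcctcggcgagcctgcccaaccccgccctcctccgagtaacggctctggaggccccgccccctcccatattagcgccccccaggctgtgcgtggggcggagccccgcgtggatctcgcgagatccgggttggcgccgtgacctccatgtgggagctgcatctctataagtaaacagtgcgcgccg
Dnmt1: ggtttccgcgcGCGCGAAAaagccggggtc

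A match describes letters and not a bound site, and the start sites used in these cells are not known. The same windows differ in CpG sites, the substrate of these enzymes. The Uhrf1 window shown holds 30 CpG, more than 94.1% of all windows, and the Uhrf2 window 23, more than 86.7%. The richest was that of Tet2 with 51 (more than 99.9%) and the poorest the one before the most upstream Dnmt1 start with 2. The median over all windows was 6.

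The de novo methyltransferase genes did not pass the test. Dnmt3a (ENSMUSG00000020661, chromosome 12, 3806007 to 3914443, plus strand) had 169, 175 and 177 CPM in eGFPlo replicates 1 to 3 and 160, 214 and 149 CPM in eGFPhi replicates 1 to 3. The eGFPhi replicate 2 library lay above every eGFPlo library and the other eGFPhi libraries below them, so that the coefficient of variation was 2.56% in eGFPlo and 19.8% in eGFPhi. The log2 fold change was 0.0097 (95% interval -0.28 to 0.30, edgeR adjusted p = 0.952). Without eGFPhi replicate 2 the direction turned and the gene passed as lower, with a log2 fold change of -0.17 and an adjusted p of 0.0130. The annotation places 133 bases of an antisense gene, Dnmt3aos, over its exons.

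Dnmt3b (ENSMUSG00000027478, chromosome 2, 153649450 to 153687730, plus strand) had 79.2, 78.9 and 79.5 CPM in eGFPlo and 71.4, 67.8 and 80.5 CPM in eGFPhi replicates 1 to 3. The eGFPhi libraries of replicates 1 and 2 lay below all eGFPlo libraries and that of replicate 3 above them. The log2 fold change was -0.11 (95% interval -0.26 to 0.035, edgeR adjusted p = 0.155), and without eGFPhi replicate 3 it was -0.19 with an adjusted p of 0.0101. Without eGFPhi replicate 2 it was -0.057 (edgeR adjusted p = 0.449). A rodent copy, Dnmt3c, shares 6.17% of the gene's transcript sequence in stretches of 75 bases. It had 0.720 to 0.978 CPM in eGFPlo, 2.04 CPM in eGFPhi replicate 2 and no count in the other eGFPhi libraries, where 3 counts would be 0.267 and 0.154 CPM.

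The ratio of Dnmt3a to Dnmt3b counts was steady in eGFPlo, at log2 values of 1.09 to 1.16, and spread from 0.89 to 1.66 in eGFPhi (difference 0.11, exact two-sided permutation p = 0.7, adjusted p = 0.7). Without eGFPhi replicate 2 its sign turned, to -0.10. The log2 ratio of Dnmt1 to Dnmt3a was 1.68 to 1.76 in eGFPlo and 0.94 to 1.41 in eGFPhi, a difference of -0.51 with no overlap (exact two-sided permutation p = 0.1, adjusted p = 0.15). Per kilobase of merged exons Dnmt1 held 74.6% to 75.4% of the summed level of the 3 methyltransferase genes in eGFPlo and 68.0% to 69.7% in eGFPhi. Dnmt3b held 14.9 ± 0.227% and 18.1 ± 1.90%, and Dnmt3a 10.0 ± 0.262% and 13.2 ± 2.27%. By the longest transcript Dnmt3b (18.3 CPM per kilobase) stood above Dnmt3a (17.9) in eGFPlo and below it in eGFPhi (16.9 against 18.0).

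**Figure D2:**
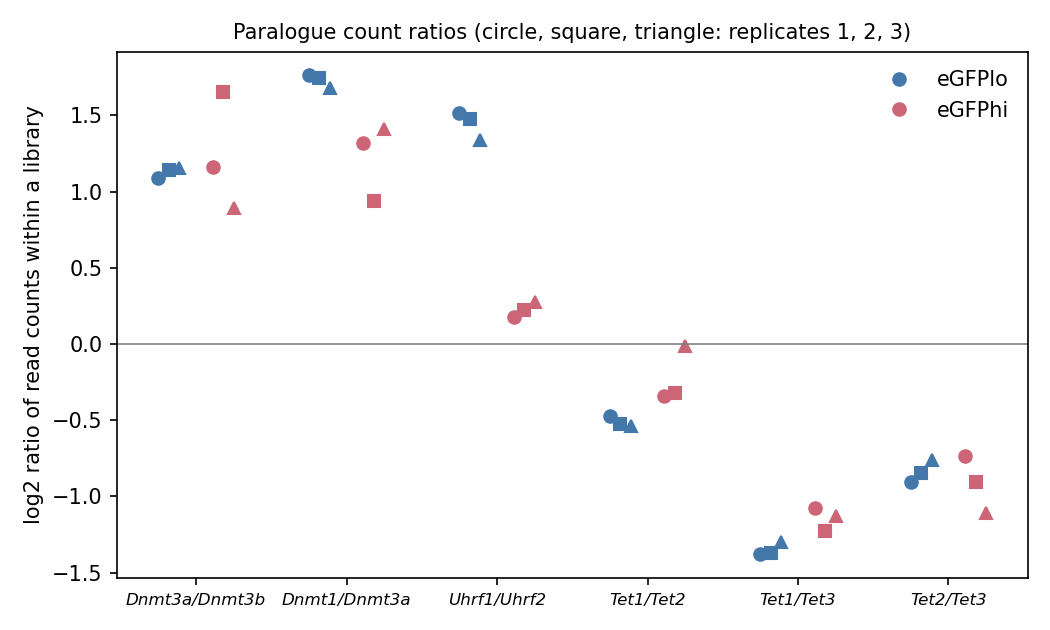
Log2 ratio of the read counts of 2 genes (vertical axis) within each library, for 6 pairs. The Uhrf1 to Uhrf2 ratio is 1.34 to 1.52 in eGFPlo and 0.18 to 0.28 in eGFPhi, and the Dnmt3a to Dnmt3b ratio spreads from 0.89 to 1.66 over the eGFPhi libraries.

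Among the erasers 1 of the 3 Tet genes passed. Tet1 (ENSMUSG00000047146, chromosome 10, 62804570 to 62908996, minus strand), the dioxygenase gene best known from embryonic stem cells, had 94.3, 83.6 and 85.2 CPM in eGFPlo and 111, 104 and 111 CPM in eGFPhi replicates 1 to 3. Every eGFPhi library lay above every eGFPlo library. Mean levels of 87.7 ± 5.78 and 109 ± 3.84 CPM made this a 1.24-fold rise (log2 fold change 0.31, SE 0.053, edgeR adjusted p = 0.00156), and 31.8% of tested genes had a higher log2 fold change. With the assumed variation of 0.2 the call was lost (edgeR adjusted p = 0.336).

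Tet2 (ENSMUSG00000040943, chromosome 3, 133463679 to 133545139, minus strand), the Tet gene most often lost in blood disease, had 131, 120 and 124 CPM in eGFPlo and 140, 130 and 112 CPM in eGFPhi replicates 1 to 3. The eGFPhi libraries spread on both sides of eGFPlo (coefficient of variation 11.1% against 4.29%). The log2 fold change was 0.026 with a 95% interval of -0.16 to 0.21 (edgeR adjusted p = 0.788), and its sign turned without eGFPhi replicate 1 (-0.036) or eGFPlo replicate 2 (-0.0025).

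Tet3 (ENSMUSG00000034832, chromosome 6, 83362373 to 83459084, minus strand), which encodes the dioxygenase of the zygote, had 245, 216 and 210 CPM in eGFPlo and 233, 244 and 242 CPM in eGFPhi replicates 1 to 3. The eGFPlo replicate 1 library lay above all eGFPhi libraries and the other eGFPlo libraries below them. The log2 fold change was 0.10 (95% interval -0.031 to 0.23, edgeR adjusted p = 0.153). Without eGFPlo replicate 1 it was 0.17 and passed (edgeR adjusted p = 0.00384), and without eGFPlo replicate 3 it was 0.055 (edgeR adjusted p = 0.430).

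Measured against each other within libraries, Tet1 stood higher beside each paralogue in all eGFPhi libraries than in any eGFPlo library. The log2 ratio of Tet1 to Tet2 counts was -0.54 to -0.47 in eGFPlo and -0.34 to -0.016 in eGFPhi (difference 0.29), and that of Tet1 to Tet3 was -1.38 to -1.30 and -1.23 to -1.08 (difference 0.21). Neither pair of groups overlapped (exact two-sided permutation p = 0.1, adjusted p = 0.15 for each). Without eGFPhi replicate 3 the difference of the Tet1 to Tet2 ratio was 0.18. The ratio of Tet2 to Tet3 overlapped, with a difference of -0.080 (exact two-sided permutation p = 0.6, adjusted p = 0.7), which turned to 0.016 without eGFPhi replicate 3. Tet3 was the most abundant per kilobase of merged exons, with 50.6 ± 1.01% of the summed level of the 3 genes in eGFPlo and 49.6 ± 1.93% in eGFPhi. Tet1 held 21.4 ± 0.231% and 24.3 ± 1.07%, and Tet2 28.0 ± 0.842% and 26.1 ± 2.40%.

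**Figure D3:**
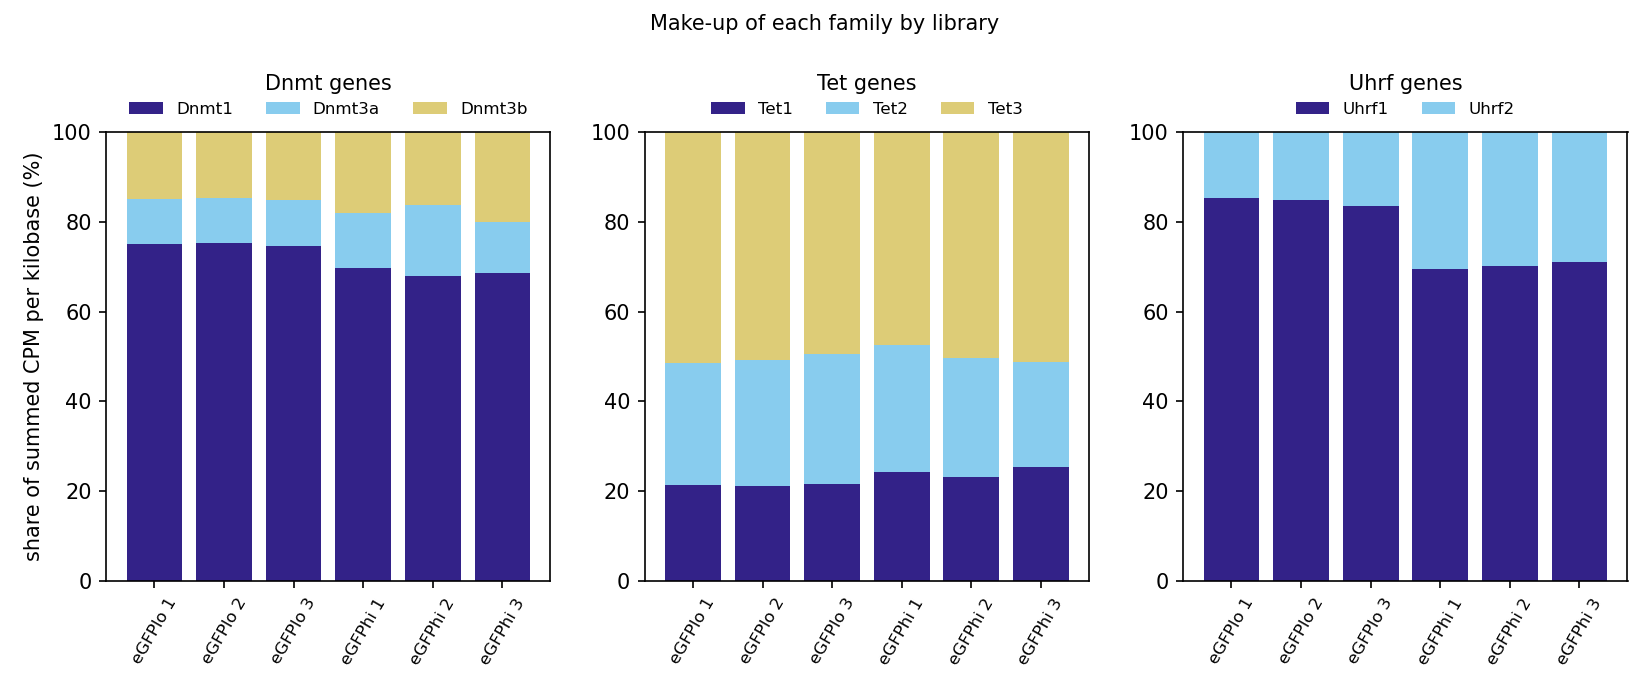
Share of each gene (percent, vertical axis) in the summed CPM per kilobase of merged exons of its family, in each library. The shares depend on the length used. Uhrf1 takes 84.6% of its pair on average in eGFPlo and 70.2% in eGFPhi, Dnmt1 takes 74.6% to 75.4% and 68.0% to 69.7% of the Dnmt genes, and Tet3 takes 50.6% and 49.6% of the Tet genes.

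Tdg (ENSMUSG00000034674, chromosome 10, 82629828 to 82650799, plus strand), whose product removes oxidised methylcytosine, had the lowest CPM of the 10 genes, not corrected for length. It had 28.8, 24.0 and 24.6 CPM in eGFPlo and 14.5, 14.6 and 15.2 CPM in eGFPhi replicates 1 to 3. The groups were well apart, and means of 25.8 ± 2.61 and 14.7 ± 0.359 CPM were 1.75-fold apart (log2 fold change -0.80, SE 0.088, edgeR adjusted p = 1.49e-04). On the scale of log2 of the deposited FPKM plus 1 the change was -0.53. Its value is uncertain, since 33.8% of its transcript sequence recurs in other annotated transcripts in stretches of 75 bases, mostly of the copies Tdg-ps, Gm9855 and Gm5597. Tdg-ps had 12.6 to 13.9 CPM in eGFPlo and 10.5 to 11.5 CPM in eGFPhi, and Tdg-ps2 had 5.04 to 6.43 and 1.25 to 1.46 CPM. The sum of Tdg, Tdg-ps, Tdg-ps2 and Gm5597 was 49.0 to 52.9 CPM in eGFPlo and 31.1 to 32.3 CPM in eGFPhi, a 1.60-fold difference. Gm9855 had no row and is not in this sum. Glt8d2 on the opposite strand overlaps 367 bases of its exons.

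Mbd2 (ENSMUSG00000024513, chromosome 18, 70568189 to 70626131, plus strand) encodes a reader that brings the NuRD repressor complex to methylated CpG. It had 81.9, 82.3 and 97.7 CPM in eGFPlo and 66.5, 72.0 and 66.3 CPM in eGFPhi replicates 1 to 3. The groups did not overlap, and eGFPlo replicate 3 stood above the other libraries of its group. The fall from 87.3 ± 9.04 to 68.3 ± 3.27 CPM was 1.28-fold (log2 fold change -0.36, SE 0.076, edgeR adjusted p = 0.00449). It did not pass with the assumed variation of 0.2 (edgeR adjusted p = 0.254).

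Compared per kilobase of merged exons, the order of the 10 genes was led by Dnmt1 in both groups. In eGFPlo Dnmt1 (78.0 ± 1.30 CPM per kilobase) was followed by Uhrf1 (65.3 ± 5.59) and Mbd2 (27.2 ± 2.81), then by Dnmt3b, Tet3, Uhrf2, Dnmt3a, Tet2, Tet1 (5.67 ± 0.374) and Tdg (4.80 ± 0.485), and no neighbours in this order overlapped. In eGFPhi Dnmt1 (54.5 ± 0.870) again led Uhrf1 (28.6 ± 0.820) and Mbd2 (21.2 ± 1.02). There the neighbours Tet3 and Dnmt3b, Uhrf2 and Dnmt3a, and Tet2 and Tet1 overlapped. With the longest transcript as the length, Mbd2 (35.0 CPM per kilobase) passed Uhrf1 (33.9) in eGFPhi and Uhrf2 moved up to the fourth place. In eGFPlo that length put Tdg (7.37) above Tet1 (6.10). The order thus rests on the length chosen below Mbd2 in eGFPlo and below Dnmt1 in eGFPhi.

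The falls of Uhrf1, Dnmt1, Tdg and Mbd2 occurred in the libraries in which the proliferation, B cell and progenitor markers also fell, and the rise of Tet1 where LT-HSC markers rose. Uhrf1, with a log2 fold change of -1.19, was close to the median of the proliferation markers (-1.24), and Dnmt1 (-0.52) lay toward the small end of their range (-2.11 to -0.39). The part of these markers in the changes was not tested. By the root mean square difference of centred log2 CPM over the 6 libraries, among 9066 genes of at least 10 CPM, the genes most like Uhrf1 were Espl1 (0.053), Runx3 (0.061) and Bub1b (0.065), and 0.496% of genes lay within 0.1. Those most like Dnmt1 were Arl6ip1 (0.0079), Prep (0.011) and Ccng2 (0.014), with 9.70% of genes within 0.1. Those most like Tet1 were Sdcbp, Rpl22l1 and Txlng (0.028 to 0.031), and those most like Tdg were Erh, Spdl1 and Trnau1ap (0.034 to 0.049). Dnmt3a, with its high eGFPhi replicate 2, was nearest to Stau1 (0.050), Tmem214 (0.057) and Sbds (0.060), and 0.154% of genes lay within 0.1. Nearest to Mbd2 were Eif6, Rpa1 and Uba2, to Dnmt3b Zfp277, Lmf2 and Lratd2, and to Tet2 Zcrb1, Luzp1 and Adgrl2. Nearest to Tet3 were Nbr1, Rapgef1 and Ttll3, and to Uhrf2 Phf2, Sos1 and Psmb9. The share of genes within 0.1 was 22.7% for Uhrf2, 13.1% for Dnmt3b, 11.9% for Tet3 and 8.85% for Tet1. It was 4.81% for Mbd2, 4.75% for Tet2 and 1.16% for Tdg. Where the share is high, the genes named stand out little from many others.

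Genes that work with the maintenance enzymes were mostly lower as well. The 14 maintenance partners had a median log2 fold change of -0.29, with 10 that fell and 1 that rose. Over all genes tested 31.7% fell and 32.3% rose, which is also the background for the lists that follow. Pclaf, the gene of a PCNA-binding protein that is ubiquitinated by UHRF1, fell 4.98-fold from 60.7 ± 2.42 to 12.1 ± 0.912 CPM (edgeR adjusted p = 2.57e-07). The chromatin remodeller gene Hells fell 1.87-fold from 164 ± 3.54 to 87.5 ± 4.22 CPM, its zinc finger partner gene Cdca7 fell from 155 ± 1.51 to 104 ± 0.894 CPM and the histone chaperone gene Rbbp4 1.37-fold. Zfp57, encoding the factor that keeps methylation at imprinted regions, was the one that rose, from 5.43 to 9.76 CPM on average. Of 13 tested regulators of de novo methylation 8 fell and 3 rose (median -0.15). The changes were small: the histone methyltransferase gene Nsd2 fell 1.23-fold, the repressor gene Morc2a 1.22-fold, the CpG-binding protein gene Cxxc1 1.21-fold and the histone methyltransferase gene Setd2 1.10-fold.

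Of 18 genes of methyl-CpG readers and the NuRD complex 9 fell and 4 rose (31.7% and 32.3% over all genes). Their median was -0.19 on the log2 scale. The NuRD subunit genes Gatad2a (146 ± 1.49 against 104 ± 1.62 CPM), Mta2 (231 ± 0.656 against 182 ± 1.71 CPM) and Chd3 fell 1.40-fold, 1.27-fold and 1.24-fold. Of 14 tested TET cofactor and partner genes 6 rose and 7 fell (median 0.00099). Ogt, whose product binds TET2 and TET3, rose 1.26-fold from 205 ± 5.74 to 259 ± 0.962 CPM. Idh1 and Idh2, whose enzymes make the TET cosubstrate 2-oxoglutarate, fell 1.60-fold and 1.48-fold, and the stress gene Gadd45a fell 1.96-fold.

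Of 18 tested genes of base excision repair and deamination 9 fell and 3 rose (31.7% and 32.3% over all genes). Their median was -0.22. Parp1, encoding the break sensor, fell 1.49-fold from 369 ± 5.76 to 247 ± 2.15 CPM, Neil3 fell 2.38-fold and the cytidine deaminase gene Apobec3 1.35-fold. Neil2, a glycosylase gene of the same family as Neil3, rose from 0.433 ± 0.156 to 4.31 ± 0.296 CPM, a 9.41-fold change from a low level (edgeR adjusted p = 1.78e-05). Of 10 tested methyl donor genes 7 rose and 1 fell (median 0.27). Ahcyl1, a paralogue of the gene of S-adenosylhomocysteine hydrolase, rose 1.27-fold, the methionine synthase reductase gene Mtrr 1.76-fold and the salvage enzyme gene Mtap 1.19-fold. The hydrolase gene itself, Ahcy, fell 1.66-fold from 23.3 ± 1.44 to 13.9 ± 1.28 CPM.

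**Figure D4:**
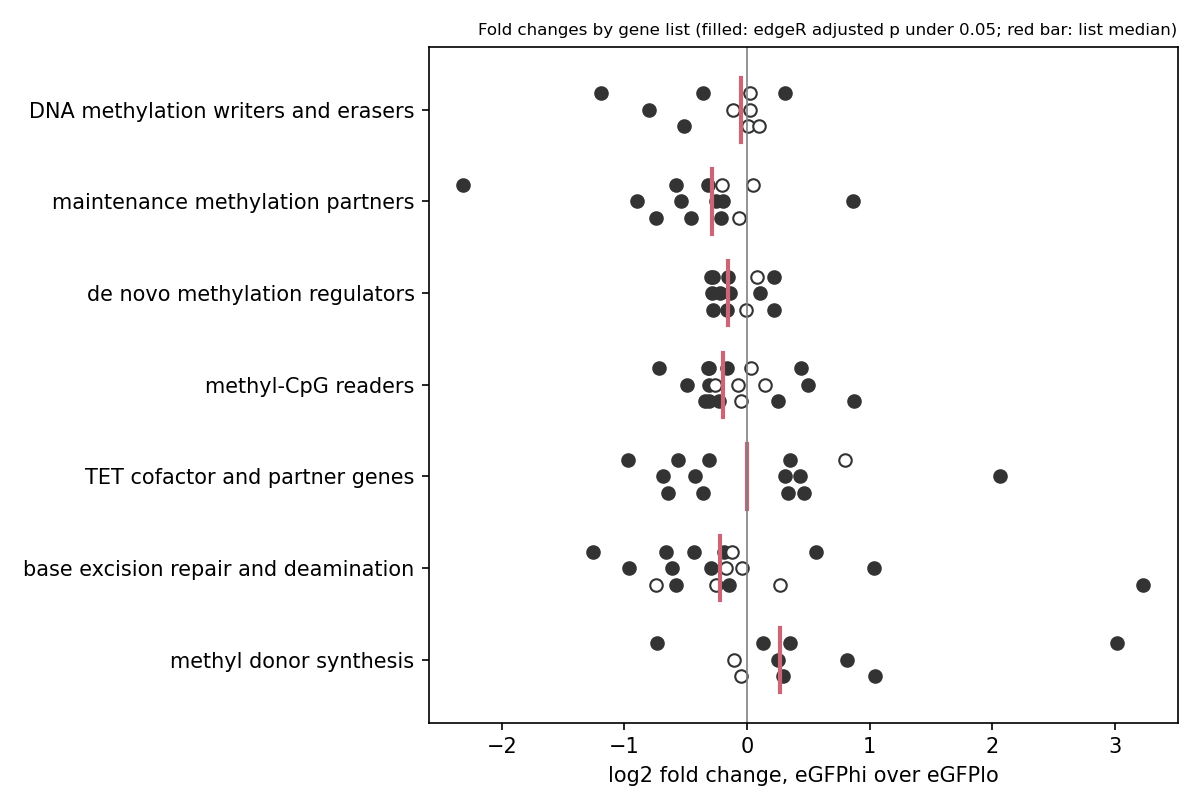
Log2 fold change of eGFPhi over eGFPlo (horizontal axis) for each tested gene of 7 lists, filled where the edgeR adjusted p is under 0.05, with the list median as a red bar. The 10 writers and erasers have a median of -0.052, the maintenance partners one of -0.29 and the methyl donor genes one of 0.27.

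Transcripts of germline genes that promoter methylation keeps silent were nearly unmeasured. Of 17 such genes 3 had a row and 2 passed the filter on low counts. The RNA helicase gene Ddx4 had 2.83, 1.82 and 2.49 CPM in eGFPlo and 0.692 CPM in eGFPhi replicate 2, with no count in the other eGFPhi libraries, and passed as lower (edgeR adjusted p = 0.00952). Sycp3, a gene of the meiotic chromosome axis, stood at 0.171 to 1.05 and 0.922 to 1.08 CPM and did not pass.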

How the data were processed

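Per the labels, RNA of LT-HSCs was selected on poly-T beads and sequenced as stranded paired-end libraries. Per the submitters' processing notes, CASAVA 1.8, HISAT2, StringTie and edgeR were used, with builds hg38 and GRCm38. Which counter was run, and how it treated strand and shared reads, is not named there. The deposited counts were used as raw counts. The authors' FPKM values were used in an alternative. Positions are those of the file and equal GENCODE M21 (GRCm38) for all 10 genes.

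Counts were fitted with edgeR 4.0.16 (R 4.3.3, limma 3.58.1) after filterByExpr (minimum count 10, total 15), which kept 18081 genes. TMM factors were used, and the quasi-likelihood test had group as its only term, with a threshold of 0.05. The pipeline was tested on simulated data. Ratios used counts plus 0.5. Alternatives were a minimum fold of 2, DESeq2 1.42.0, upper-quartile or RLE factors, a filter of 5 CPM in 3 libraries or none, voom with limma, an assumed coefficient of variation of 0.2, limma on log2 of FPKM plus 1, a replicate block, a threshold of 0.1 and leaving out each library. Depth puts 3 counts at 0.115 to 0.267 CPM. From each list the text names the passing genes with the smallest p, at most 4, of which 1 is not reported here. Zfp57, Sycp3 and the copies of Tdg, Uhrf1 and Dnmt3b were added after their values were seen. The single marker genes of cell types were named outside the rule of smallest p, with their values known. The members and lists were chosen with earlier results of these data known.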

Additional observations from a re-analysis of the deposited data

How the results depend on the processing

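Uhrf1 stayed lower and past the threshold under all 17 alternatives. With a minimum fold of 2 it was the only one of the 10 genes to pass, giving 1 lower and 0 higher (1106 and 1403 over all genes, against 5731 and 5840). With an assumed coefficient of variation of 0.2 there were 2 lower and 0 higher (2982 and 3637 over all genes). Leaving out each library gave 4 to 5 lower and 1 to 2 higher (5230 to 5693 and 5302 to 5734 over all genes). Dnmt3a turned to -0.0034 with FPKM and -0.0095 with the replicate block, and ranged from -0.17 to 0.12 when a library was left out (-0.012 without eGFPlo replicate 1). Tet2 then ranged from -0.036 to 0.11. The ratio differences ranged over left-out libraries from -0.10 to 0.28 (Dnmt3a to Dnmt3b), -0.60 to -0.36 (Dnmt1 to Dnmt3a), -1.27 to -1.18 (Uhrf1 to Uhrf2), 0.18 to 0.34 (Tet1 to Tet2), 0.17 to 0.25 (Tet1 to Tet3) and -0.17 to 0.016 (Tet2 to Tet3). The cause of these turns was not tested. Groups share replicate numbers but nothing says that these mark an animal or day, and residuals of same-numbered libraries correlated at -0.013, 0.00055 and -0.011. The replicate block left the count at 4 lower and 1 higher (5414 and 5551 over all genes). Counting error limits Tdg most, with 163 to 445 counts a library.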
